A study of Mus musculus with 14 samples.

Results

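The miRNA content of mouse corpus callosum was compared between the end of demyelination and the first days of repair. Of the 14 arrays of the series, 8 belong to this comparison: 4 of male mice that had eaten cuprizone, mixed at 0.2 to 0.4% into powdered chow, for 4 weeks (4wd), and 4 of male mice fed the same way and then returned to regular diet for 2 days (2dr). Both groups had thus received the toxin, and they differ by the 2 days without it. The mice were 7 to 8 weeks old when cuprizone began, so the 2dr mice were also slightly older when sampled. The methods give this age and count mice per group, so each array was taken as 1 mouse, and the strain of these mice is not given in the sources used here. The remaining 6 arrays, 4 of control mice on normal diet and 2 of mice with 2 weeks of regular diet after cuprizone (2wr), entered the fit and serve as reference levels. All 566 mouse miRNAs of the array were members, of which 225 were tested because they were detected on all arrays of 1 group or more. Of the 225, 173 were detected on all 8 arrays of this comparison, 51 on some of them and 1 on none. The other 341 did not pass this filter.

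Cuprizone is a copper chelator that kills mature oligodendrocytes, the cells that wrap axons in myelin. The corpus callosum, the fibre tract between the hemispheres, loses its myelin during feeding while microglia and astrocytes accumulate. Once the toxin is withdrawn, oligodendrocyte precursors that have gathered in the lesion mature and remyelinate the axons, and microglia clear myelin debris. A miRNA is a short RNA that lowers the output of mRNAs that pair with its seed, bases 2 to 8 from its 5′ end, so miRNAs with a common seed share most of their predicted targets. Neighbouring miRNA genes are often cut from a common primary transcript.

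The sequences below belong to the miRNAs on which the comparison turns, in lower case with the seed in capitals. They are the mature miRNAs of RefSeq on mouse build GRCm38.p6, matched to the older array names by arm. The first set shows miRNAs of the imprinted Dlk1-Dio3 region, whose 45 miRNA genes with probes on the array lie at chr12:109563692-109743795 and are expressed from the maternal chromosome. On the scale used here they were lower at 2dr, and no seed is common to them.
miR-433: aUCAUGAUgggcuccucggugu
miR-382: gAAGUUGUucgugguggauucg
miR-127: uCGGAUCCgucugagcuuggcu
miR-409-3p: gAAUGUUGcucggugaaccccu
miR-323-3p: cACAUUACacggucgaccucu

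A second set was higher at 2dr with the processing used here and has a common seed, AGCAGCA, although its genes lie on chromosomes 3, 11, 14 and X.
miR-15a: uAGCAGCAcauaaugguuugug
miR-15b: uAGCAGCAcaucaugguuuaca
miR-16: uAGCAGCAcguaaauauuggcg
miR-195: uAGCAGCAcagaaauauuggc
miR-497: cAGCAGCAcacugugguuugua
miR-322: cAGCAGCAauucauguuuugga

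The third set, also higher with this processing, carries the seed AAAGUGC of the miR-17 family.
miR-20a: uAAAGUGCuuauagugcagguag
miR-20b: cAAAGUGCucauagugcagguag
miR-93: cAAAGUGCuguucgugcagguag
miR-106b: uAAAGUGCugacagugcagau

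Next come pairs with a common seed that are set side by side below, miR-212 with its neighbour miR-132 and miR-146a with its paralog miR-146b.
miR-212: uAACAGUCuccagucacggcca
miR-132: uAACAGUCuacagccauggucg
miR-146a: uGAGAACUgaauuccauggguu
miR-146b: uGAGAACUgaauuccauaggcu

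The last pair are miR-326, lower on every 2dr array than on every 4wd array, and miR-210, among the highest differences.
miR-326: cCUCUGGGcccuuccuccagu
miR-210: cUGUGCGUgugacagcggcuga
The mature miR-326 lies at chr7:99552328-99552348 on the plus strand and miR-210 at chr7:141221407-141221428 on the minus strand. The miR-146a sequence lies at chr11:43374435-43374456 on the minus strand, and miR-322 at chrX:53054306-53054327 on the minus strand. Members of a seed family differ by few bases, and how far the probes of 1 member bind another was not tested.

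All values that follow are log2 of the signal divided by the 75th percentile of its array, so that 0 is that percentile, and a difference is 2dr minus 4wd on this log2 scale. No miRNA passed the test between 2dr and 4wd: with a threshold of 0.05 on the p adjusted after Benjamini and Hochberg and a minimum change of 2-fold, limma called 0 of 225 (0.0%), and the lowest adjusted p was 0.173. At an unadjusted p under 0.05 there were 41 (18.2%), of which 35 were lower (15.6%) and 6 higher at 2dr (2.67%). This split turns with the scaling: 4 were lower and 24 higher in the authors' processed values, 6 and 20 with the percentile over all mouse miRNAs, and 0 and 11 with no scaling. The 6 higher ones were miR-146a, miR-210, miR-20a, miR-322, miR-20b and miR-16. For 17 miRNAs (7.56%) every 2dr array lay below every 4wd array, and for 2 (0.889%), miR-20b and miR-322, every 2dr array lay above. These counts were 9 and 5 in the authors' processed values, 10 and 6 after quantile normalization, and 0 and 9 with no scaling. With 4 arrays a group, an exact two-sided permutation test cannot go below p = 0.0286, which each of these 19 reached. The differences below are therefore descriptions of which miRNAs stood lower or higher, none of them a call.

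Most differences leaned to the lower side. Of the 225 tested, 153 were below 0 (68.0%) and 72 above (32.0%), with a median of -0.30. This lean depends on the scaling: 52.4% were above 0 with the percentile taken over all mouse miRNAs, 54.2% in the authors' processed values, 45.8% after quantile normalization, 74.2% with no scaling and 19.1% after another background correction (normexp). For this reason each group of miRNAs is also set against the median of all 225. The lean was larger in dim miRNAs, with a median difference of -0.47 in the dimmest 75, -0.34 in the middle 75 and -0.13 in the brightest 75. The 2 slides on which the arrays were scanned differ along the same axis, with a median of slide 2 minus slide 1 of 0.45, -0.05 and -0.29 in these classes, and 3 of 4 arrays at 2dr but 2 of 4 at 4wd were on slide 1. With the slide as a block the medians were -0.37, -0.27 and -0.14.

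**Figure D1:**
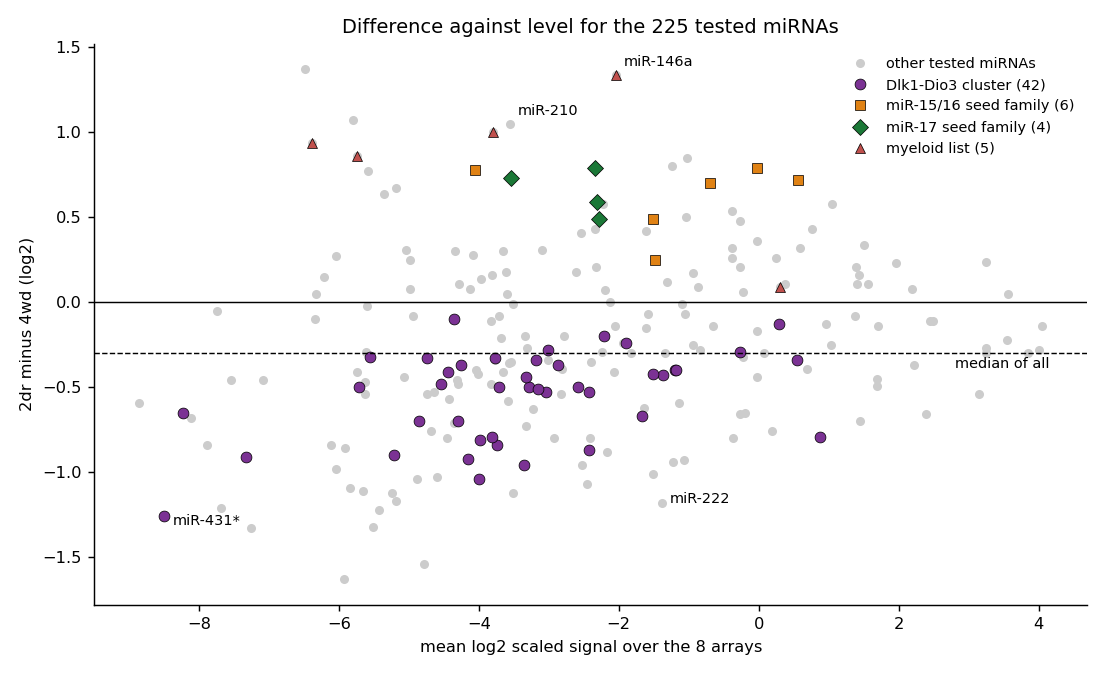
Difference between 2dr and 4wd (log2, vertical axis) against the mean log2 scaled signal over the 8 arrays (horizontal axis) for the 225 tested miRNAs, 1 point each; the solid line is 0 and the dashed line the median of all tested, -0.30. All 42 tested miRNAs of the Dlk1-Dio3 cluster lie below 0 (15 of 42 with no scaling), while the 6 of the miR-15/16 seed family and the 4 of the miR-17 seed family lie above it (3 of 6 and 4 of 4 were below 0 after normexp).

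The arrays differed in brightness. Between 210 and 240 mouse miRNAs were detected per array at 4wd and between 181 and 253 at 2dr, and the summed signal ran from 50187 to 90452 intensity units at 4wd and from 45664 to 139285 at 2dr. The lowest of both at 2dr came from replicate 2. Of the slides, slide 1 held replicates 1 and 2 of 4wd with replicates 1, 2 and 4 of 2dr, and slide 2 held replicates 3 and 4 of 4wd with replicate 3 of 2dr. Between the slides, limma found a difference for 69 of the 225 miRNAs at an adjusted p under 0.05, 41 of them higher on slide 2. With the slide as a block, 0 miRNAs were called and 57 had an unadjusted p under 0.05, 48 of them lower at 2dr. Within-slide differences are given below for the main groups. Since the slide 2 value sets 2 arrays against 1, it has no test.

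The Dlk1-Dio3 cluster made the broadest pattern. This region holds the paternally expressed Dlk1 and Rtl1 and maternally expressed noncoding RNAs, from which its miRNAs are cut, and it is active in neurons. Of its 70 miRNAs on the array, 42 were tested, 30 of them detected on all 8 arrays. All 42 were below 0, although 15 of 42 were with no scaling. Their differences ran from -1.26 to -0.10 with a median of -0.50, against a median of -0.17 in the 183 tested miRNAs outside the cluster, of which 111 were below 0. At an unadjusted p under 0.05, 14 of the 42 were lower and 0 higher, and in 9 every 2dr array lay below every 4wd array. Over all 225 tested these counts were 35 (15.6%) and 17 (7.56%), and over the 183 outside the cluster 21 and 8. With no scaling, 0 of the 225 had groups apart on the lower side. None was called. In each of the 3 brightness classes the cluster stood lower than the rest: -0.67 against -0.46 among dim miRNAs, -0.50 against -0.20 in the middle and -0.40 against -0.09 among bright ones.

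Within the cluster, miR-433 had the smallest p. This miRNA is processed from a transcript antisense to Rtl1, as are miR-127 and miR-431. It read -2.22, -2.17, -1.72 and -1.86 on replicates 1 to 4 of 4wd and -2.65, -2.75, -2.83 and -3.20 on those of 2dr, so the groups were apart. The 4wd mean was 1.82-fold above that of 2dr, a difference of -0.87 ± 0.23 (SE; limma, adjusted p = 0.173). The control arrays read -2.80, -2.36, -2.36 and -2.93, all below 4wd and overlapping 2dr.

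The array's miR-485 read -3.51, -3.59, -3.76 and -3.91 at 4wd and -4.21, -4.68, -4.66 and -4.93 at 2dr. All 4 arrays of 2dr were again below those of 4wd, with a difference of -0.92 ± 0.25 (limma, adjusted p = 0.173). For miR-382 the 4wd arrays read -1.41, -1.21, -1.34 and -1.40 and the 2dr arrays -1.81, -2.26, -1.77 and -2.18, a difference of -0.67 ± 0.19 with the same adjusted p. The spread of miR-382 was small at 4wd (SD 0.09, n = 4) and larger at 2dr (SD 0.25, n = 4). Its level in control, from -1.85 to -1.35, overlapped both groups.

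At the bright end, miR-127 read 1.02, 1.20, 1.63 and 1.24 at 4wd and 0.60, 0.36, 0.91 and 0.03 at 2dr, 1.73-fold higher in the 4wd mean (limma, adjusted p = 0.205). The lowest 4wd array and the highest 2dr array were 1.02 and 0.91, so the gap between the groups was narrow. For miR-409-3p the range was -3.63 to -3.23 at 4wd and -4.41 to -3.97 at 2dr, and its partner from the other arm of the hairpin, miR-409-5p, differed by -0.81 beside the -0.79 of miR-409-3p. The range of miR-323-3p was -4.07 to -3.85 at 4wd and -5.39 to -4.21 at 2dr, where 3 of 4 arrays detected it, with a difference of -0.70 that became -0.46 without 2dr replicate 2. The differences of miR-370, miR-381 and miR-543, whose groups were also apart, were -0.96, -0.53 and -0.51. In miR-341, with a difference of -0.84, the groups overlapped through 2dr replicate 1. Detection of miR-431*, the minor strand of miR-431, went from 2 of 4 arrays at 4wd to 0 of 4 at 2dr, where it lay at or near the floor (-9.15 to -9.07).

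**Figure D2:**
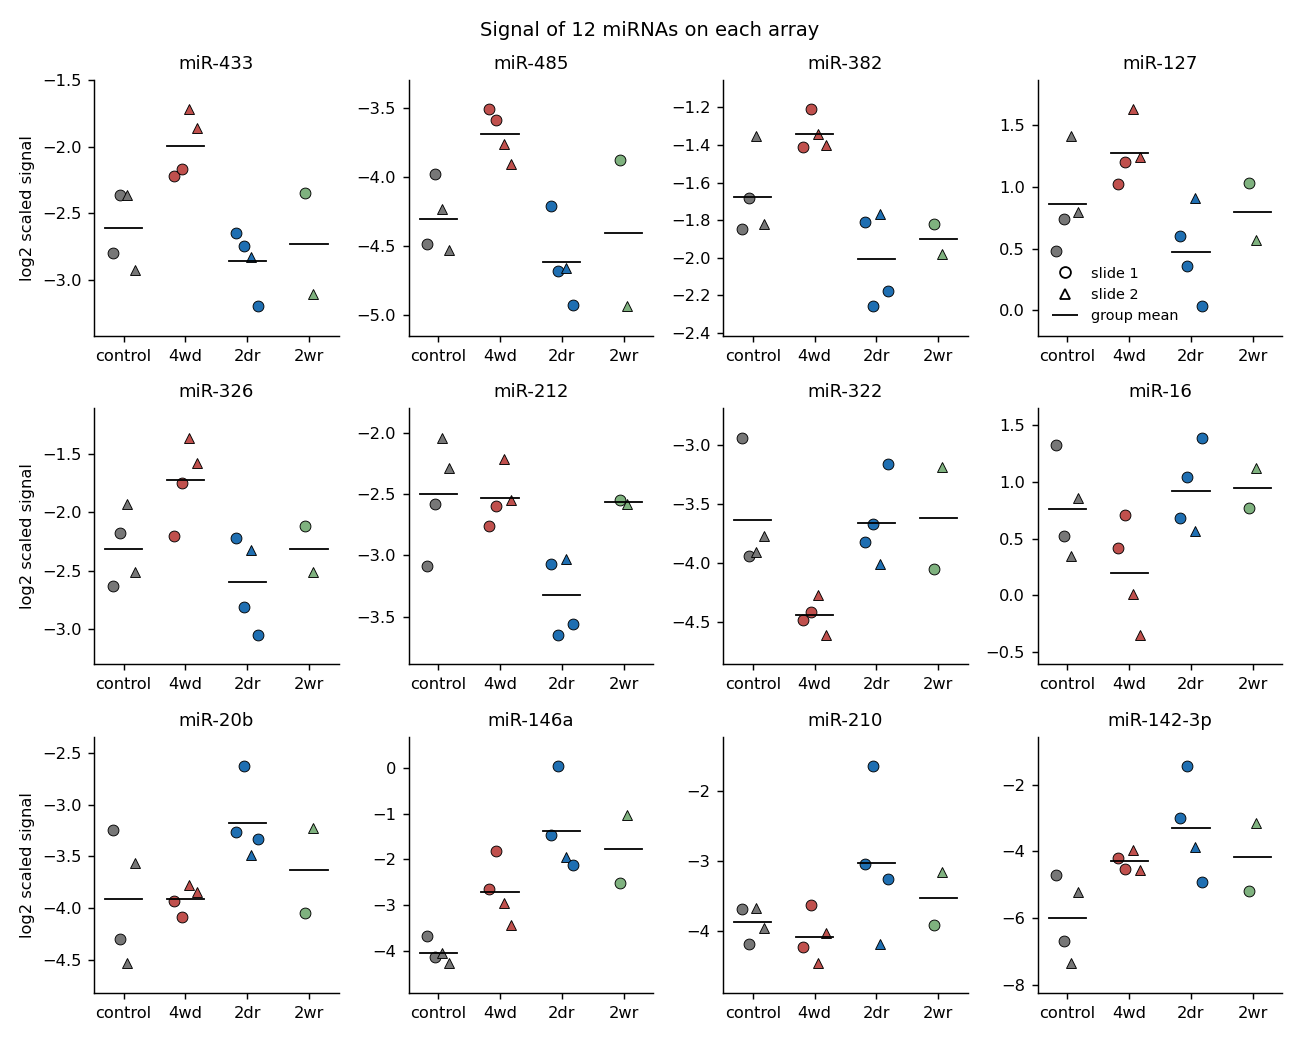
Log2 scaled signal (vertical axes) of 12 miRNAs on every array of the 4 groups, with a circle for slide 1, a triangle for slide 2 and a line at the group mean. In miR-433, miR-485, miR-382, miR-127, miR-326 and miR-212 every 2dr array lies below every 4wd array, in miR-322 and miR-20b every 2dr array lies above, and miR-146a, miR-210 and miR-142-3p owe their highest value to replicate 2 of 2dr.

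Set against the median of all tested miRNAs of the same array, which removes the scaling, the cluster median stood at -0.52, -0.44, -0.26 and -0.61 on the 4wd arrays and at -0.54, -1.08, -0.59 and -0.82 on the 2dr arrays. The groups overlapped on this measure through replicate 4 of 4wd. The control arrays stood at -0.48, -0.44, -0.82 and -0.38, overlapping both groups. The median of the members' differences, taken relative to all tested, was -0.20, and 36 of 42 members were below the median of all tested. It stayed between -0.20 and -0.10 under the 6 other scalings and signal summaries and between -0.27 and -0.15 with any array left out. The direction against 0 held less well, since with no scaling the cluster median was 0.07 and 15 of 42 members were below 0. With the slide as a block 40 of 42 lay below the median of all tested. Within slide 1 the cluster median was -0.63, against -0.28 for all tested and -0.20 outside the cluster. Within slide 2 it was -0.10, against -0.09 and -0.04, so the difference from the other miRNAs was small there. The slide 2 values set 2 arrays of 4wd against 1 of 2dr and cannot show that it is absent.

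miRNAs known from neurons ran the same way in part. Of the 10 on the list, 9 were tested and detected on all 8 arrays, and miR-134 was detected on none. In the tested set 8 of 9 were below 0 (4 with no scaling), where 68.0% of all tested were, with a median of -0.54. Against the median of all tested, 6 of 9 were below, with a median of -0.24, and after normexp 6 of 9 were above, with a median of 0.39. The unadjusted p was under 0.05 for 4 of the 9, all lower. In miR-433 (also in the cluster above), miR-212, miR-129-3p and miR-129-5p the groups were apart. Over all 225 tested, 15.6% were lower at this p and 7.56% had groups apart on the lower side. With no scaling, 0 of the 225 were apart on that side. The summed signal of the list ran from 4.14 to 5.42 at 4wd and from 4.39 to 4.97 at 2dr, so it overlapped widely, and its part in the cluster's differences was not tested. In bulk tissue, fewer cells of a type and less of a miRNA per cell cannot be told apart.

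The activity-regulated miR-212 read -2.76, -2.60, -2.21 and -2.55 at 4wd and -3.07, -3.65, -3.03 and -3.56 at 2dr. All 2dr arrays lay below the 4wd arrays. Control (-3.09 to -2.04) and 2wr (-2.58 to -2.55) overlapped 4wd, and control reached the upper 2dr levels on replicate 1. The difference was -0.80 ± 0.25 (limma, adjusted p = 0.198). Its neighbour miR-132, with the same seed and transcript, read 1.58, 1.56, 0.81 and 0.65 at 4wd and 1.24, 0.95, 0.57 and 0.87 at 2dr, with overlapping groups and a difference of -0.25 ± 0.26. Whether these 2 differences differ from each other was not tested. miR-129-3p, among the brighter miRNAs, ran from 1.84 to 2.04 at 4wd, and no 2dr array was above 1.64. miR-129-5p, from the other arm of the same hairpin, ran from -1.17 to -0.71 and from -1.79 to -1.18, nearly touching. The most neuron-specific of the list, miR-124, overlapped between the groups (2.72 to 3.97 and 2.56 to 3.35), and its minor strand miR-124* differed by -1.32 with 2 of 4 arrays of 2dr detecting it. miR-128 was the exception with a difference of 0.24 ± 0.43, and miR-153 was at -1.07 ± 0.52.

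**Figure D3:**
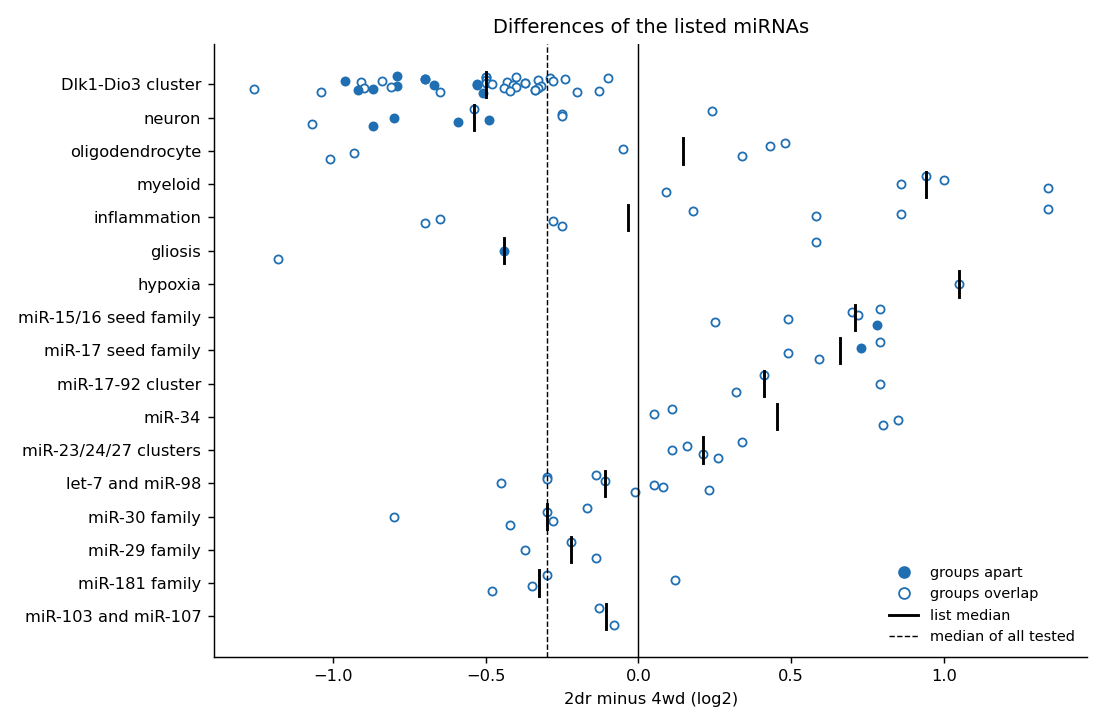
Differences between 2dr and 4wd (log2, horizontal axis) of the tested members of 17 miRNA lists, 1 circle each, filled where the groups do not overlap; the bars are list medians, the dashed line the median of all tested miRNAs (-0.30) and the solid line 0. The Dlk1-Dio3 cluster and the neuron list have medians of -0.50 and -0.54 (0.07 and 0.03 with no scaling), the 2 seed families 0.71 and 0.66 (0.13 and -0.32 after normexp), and let-7, miR-30, miR-29, miR-181 and the miR-103 pair lie near the median of all (0.18 to 1.08 above it after normexp).

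Among the miRNAs outside both sets whose groups were apart, miR-326 had the smallest p. It is encoded in an intron of Arrb1 and has been studied in T cell differentiation. It read -2.20, -1.75, -1.36 and -1.58 at 4wd and -2.22, -2.81, -2.32 and -3.05 at 2dr. The groups were apart by a small step, -2.20 against -2.22, and the difference of their means was -0.88 ± 0.26 (limma, adjusted p = 0.173). For miR-328 the arrays read -2.01, -2.32, -1.60 and -2.12 at 4wd and -2.72, -2.66, -2.76 and -3.09 at 2dr, 1.74-fold lower in the 2dr mean. The groups were apart as well in miR-139-5p (-0.66), miR-744 (-0.80) and miR-221 (-0.44).

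Of the miRNAs detected on all 8 arrays, the lowest difference belonged to miR-222, the partner of miR-221 on the X chromosome, which restrains the cell cycle inhibitor p27. It read -2.03, -0.48, -0.09 and -0.59 at 4wd and -2.18, -2.52, -0.64 and -2.58 at 2dr, so the groups overlapped widely. The difference was -1.18 ± 0.59 (limma, adjusted p = 0.307), and it was -1.17 within slide 1 and -0.30 within slide 2. Next followed miR-139-3p (-1.17), miR-150 (-1.12), miR-346 (-1.09), miR-153 (-1.07) and miR-671-5p (-1.03), none of them with groups apart. The lymphocyte miRNA miR-150 shows how the slides enter: it read -4.26 and -3.78 on slide 1 and -1.68 and -2.11 on slide 2 at 4wd, and -2.27 on slide 2 against -5.05 to -4.06 on slide 1 at 2dr. With the slide as a block its difference was -0.59. Among miRNAs detected on part of the arrays, the lowest differences were miR-466f-3p (-1.63 ± 2.01), miR-874 (-1.54 ± 0.53), miR-760 (-1.33 ± 0.75) and miR-124*. With the higher floor they were -0.83, -1.29, -0.45 and -0.74.

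On the other side stood the miR-15/16 seed family, whose targets include cyclins and Bcl2. miR-15b and miR-16 share an intron of Smc4, and miR-322 is the mouse form of human miR-424. All 6 members were tested and above 0, from 0.25 to 0.79 with a median of 0.71 (3 of 6 were below 0 after normexp), where 32.0% of all tested miRNAs were above 0. The family gave 2 of the 6 miRNAs that were higher at an unadjusted p under 0.05. For miR-322 the 4wd arrays read -4.48, -4.42, -4.27 and -4.61 and the 2dr arrays -3.82, -3.67, -4.01 and -3.16. Every 2dr array lay above every 4wd array, and the control arrays (-3.94 to -2.94) overlapped 2dr. The 2dr mean was 1.72-fold above that of 4wd, a difference of 0.78 ± 0.28 (limma, adjusted p = 0.206).

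miR-16 read 0.42, 0.71, 0.01 and -0.35 at 4wd and 0.68, 1.04, 0.57 and 1.39 at 2dr, with a difference of 0.72 ± 0.29 (limma, adjusted p = 0.214). The groups overlapped through 4wd replicate 2. miR-15a (0.79 ± 0.39) and miR-15b (0.70 ± 0.41) were near it, and miR-195 (0.49) and miR-497 (0.25), which are neighbours on chromosome 11, were the smallest. Relative to the median of all tested miRNAs of the same array, the family median stood at 1.82, 1.78, 0.70 and 1.09 at 4wd and at 2.07, 2.47, 1.45 and 2.54 at 2dr. Only replicate 3 of 2dr lay within the range of 4wd, and on its own slide it was above both 4wd arrays. The control arrays, from 1.14 to 2.18, overlapped both groups. The median of the members' relative differences was 1.01. Under the other scalings it was 0.79 to 1.01 with 6 of 6 members above the median of all tested under each. The 0.87 after normexp is no mark of this family, since let-7 with miR-98 and the miR-23, miR-24 and miR-27 clusters stood at 1.08 and 1.18 there. Within slide 1 the family median was 0.53 and within slide 2 it was 0.59, against -0.28 and -0.09 for all tested.

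The miR-17 family, of which miR-20a belongs to the proliferation-linked cluster that runs from miR-17 to miR-92a and miR-93 and miR-106b to an intron of Mcm7, a replication gene, leaned likewise. Of the 6 miRNAs with its seed that were looked up, miR-17 and miR-106a were detected on no array of either group. The 4 tested were above 0, from 0.49 to 0.79 with a median of 0.66, though below 0 after normexp. In miR-20b the groups were apart, with -3.93, -4.08, -3.77 and -3.84 at 4wd against -3.26, -2.63, -3.49 and -3.33 at 2dr, a difference of 0.73 ± 0.31 (limma, adjusted p = 0.233). In miR-20a they overlapped through 2dr replicate 3 (-2.58), with 4wd between -3.06 and -2.48 and a difference of 0.79 ± 0.35. miR-93 differed by 0.49 and miR-106b by 0.59. The family median relative to all tested stood at 0.20, 0.12, -0.16 and -0.34 at 4wd and at 0.69, 1.38, 0.24 and 1.23 at 2dr, so here the groups did not overlap. The gap was narrow, 0.20 against 0.24, and the control arrays, from -0.65 to 0.66, overlapped both groups. In the members' differences the family median was 0.72 within slide 1 and 0.32 within slide 2. After normexp the median of the differences turned to -0.32, with all 4 members below 0. Their median relative to all tested was 0.43 there, which is no mark of this family. The oligodendrocyte, inflammation and neuron lists stood at 0.52, 0.60 and 0.39 under that setting, and the myeloid list and the Dlk1-Dio3 cluster at 0.20 and -0.10. In the cluster that runs from miR-17 to miR-92a, the other tested members, miR-19b and miR-92a, differed by 0.41 and 0.32.

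**Figure D4:**
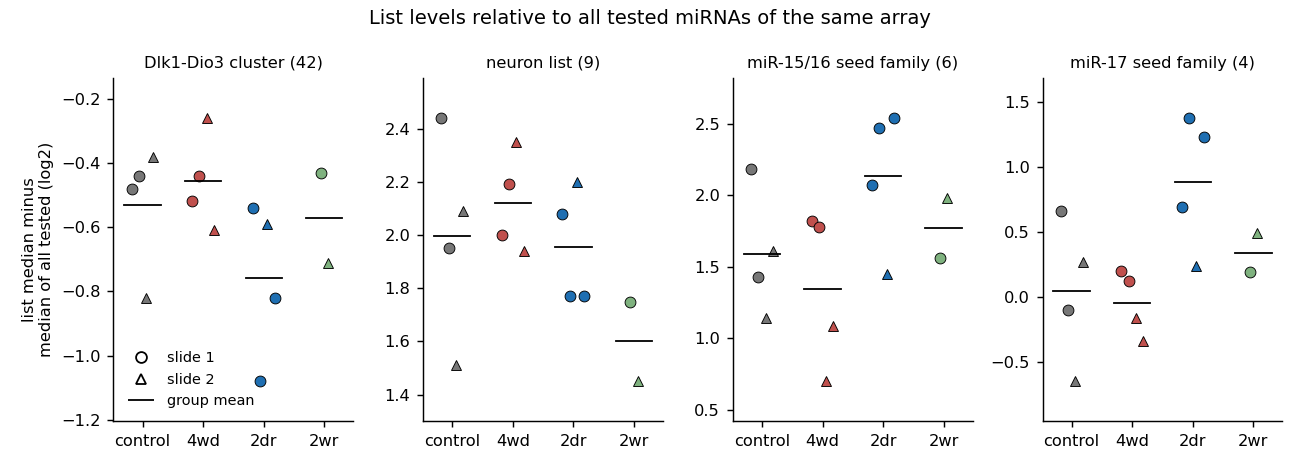
Median log2 level of 4 miRNA lists minus the median of all 225 tested miRNAs of the same array (vertical axes), for every array of the 4 groups, with a circle for slide 1, a triangle for slide 2 and a line at the group mean. Only the miR-17 seed family has 2dr arrays (0.24 to 1.38) that all lie above the 4wd arrays (-0.34 to 0.20), and its control arrays (-0.65 to 0.66) overlap both groups. In the Dlk1-Dio3 cluster, the neuron list and the miR-15/16 seed family the 2dr and 4wd arrays overlap.

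Among single miRNAs detected on all 8 arrays, miR-146a had the largest difference. It is induced by NF-kB and restrains signalling through Traf6 and Irak1. It read -2.65, -1.81, -2.95 and -3.44 at 4wd and -1.47, 0.04, -1.94 and -2.13 at 2dr. The 2dr mean was 2.53-fold above that of 4wd, a difference of 1.34 ± 0.49 (limma, adjusted p = 0.206; exact permutation p = 0.0857), with overlap through 4wd replicate 2. Within slide 1 the difference was 1.04 and within slide 2 it was 1.25. Without 2dr replicate 2, the highest array, it was 0.87, and after normexp it was 0.09 (limma, adjusted p = 0.841). All 8 arrays lay above the control range of -4.28 to -3.69. miR-146b, with the same seed, read -4.36 to -3.23 at 4wd and -4.01 to -3.27 at 2dr, a difference of 0.18 ± 0.29.

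The myeloid list, of miRNAs known from microglia, macrophages and granulocytes, had 5 of 6 members tested, 3 of them detected on all 8 arrays. All 5 were above 0 with a median of 0.94 (3 of 5 below 0 after normexp). The 3 detected throughout, miR-146a, miR-142-3p and miR-342-3p, differed by 1.34, 1.00 and 0.09. Of this comparison's groups, miR-155 passed the filter only through 2dr, where it was higher, and miR-223 passed through neither. The signs of these last are therefore no support for the list. The same holds for the count of 5 above 0, which includes them, and for the median of 0.94, which is the value of miR-223. miR-142-5p was detected on none. The summed signal of the list ran from 0.34 to 0.76 at 4wd and from 0.36 to 1.78 at 2dr. The blood cell miRNA miR-142-3p read -4.19, -4.52, -3.95 and -4.56 at 4wd and -2.99, -1.45, -3.87 and -4.91 at 2dr, so that the 2dr arrays lay both above and below all 4wd arrays. Its difference of 1.00 ± 0.74 (limma, adjusted p = 0.458) was 0.38 without replicate 2. miR-155, which activated macrophages make, was detected on 1 of 4 arrays at 4wd and on 4 of 4 at 2dr, with a difference of 0.86 ± 0.48. The granulocyte and macrophage miRNA miR-223 was detected on 0 of 4 and 3 of 4. Its means were -6.86 at 4wd and -5.91 at 2dr (limma, adjusted p = 0.397), and with the higher floor the difference was 0.31. No fold is given, since against the 5th percentile of the signals detected on the 4wd arrays the ratio was 0.798. miR-342-3p stayed near 0 at 0.09. After normexp the list median was -0.54, 0.20 above the median of all tested.

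miR-210, which is induced under hypoxia by Hif1, read -4.22, -3.63, -4.46 and -4.03 at 4wd and -3.04, -1.65, -4.19 and -3.26 at 2dr. Replicate 3 of 2dr, the array on slide 2, lay within the 4wd range and the other 3 lay above it. The difference was 1.05 ± 0.43 (limma, adjusted p = 0.214), 1.28 within slide 1 and 0.05 within slide 2, and 0.59 without replicate 2. The gliosis-linked miR-21 read 0.94, 1.01, 0.83 and 0.24 at 4wd and 1.47, 1.84, 1.11 and 0.92 at 2dr, a difference of 0.58 ± 0.36.

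Members of the miR-34 family, present in ciliated ependyma as well as downstream of p53, were high on replicate 4 of 4wd. miR-34b-5p read -1.12, -2.25, -2.89 and 0.47 at 4wd and -0.30, -0.75, -0.95 and -0.37 at 2dr. That array alone stood above all of 2dr, and the other 3 stood below all of it. The difference was 0.85 ± 0.56, and that of miR-34c 0.80 ± 0.57. Over the arrays left out in turn both ran up to 1.49, and the lowest values were 0.37 and 0.33. On the same 4wd array miR-375 (-3.33, against -6.18 or lower on the other 3) and miR-34c* (-2.92, against -7.44 or lower) also stood high. The choroid plexus and ependyma list had summed signals from -0.12 to 3.76 at 4wd and from 0.64 to 1.57 at 2dr, with miR-449a detected on 0 arrays of 4wd and 1 of 2dr. The part of this tissue in these differences was not tested. miR-34c* had the largest difference of the miRNAs detected on part of the arrays, 1.37 ± 1.14, but with the higher floor it was -0.25, and miR-375 (1.07 ± 0.87) was 0.13.

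Oligodendrocyte miRNAs did not move together. Of 6 tested, 3 were above and 3 below 0, with a median of 0.15, and the 5 detected on all 8 arrays included miR-219 and miR-338-3p, which drive precursors to mature, so defining markers of the labelled white matter were present. miR-219 read -0.17, -1.23, -0.12 and -0.51 at 4wd and 0.29, -0.63, -0.79 and 1.01 at 2dr, and miR-338-3p read 0.80, 0.02, 0.71 and 0.65 and then 1.05, 0.40, 0.23 and 2.23. In both, replicates 1 and 4 of 2dr lay above the 4wd arrays and the other 2 within their range, with differences of 0.48 ± 0.57 and 0.43 ± 0.49. The differences were 0.92 and 0.82 within slide 1 and -0.47 and -0.45 within slide 2. miR-7a and miR-138, also known from oligodendrocyte differentiation and from neurons, were lower. miR-7a read -1.48, -1.29, -0.55 and -0.73 at 4wd and -1.83, -2.23, -1.30 and -2.72 at 2dr, with a difference of -1.01 ± 0.37 (limma, adjusted p = 0.206). In miR-138 the difference was -0.93 ± 0.41.

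Several large families were near the median of all tested on the scale used here, though not after normexp. The 9 members of let-7 and miR-98 had a median of -0.11 (-0.45 to 0.23), the 5 of miR-30 -0.30 (-0.80 to -0.17), the 3 of miR-29 -0.22, the 4 of miR-181 -0.32 and miR-103 with miR-107 -0.10. In the main fit none of these members had an unadjusted p under 0.05, where 18.2% of all tested did. With the slide as a block, 8 of the 9 members of let-7 and miR-98 were below 0, beside 155 of all 225 tested. In that fit let-7e shared the lowest adjusted p, 0.125 (limma), with miR-433 among others. After normexp, let-7 with miR-98, miR-29 and the miR-103 pair stood 1.08, 0.99 and 0.91 above the median of all tested, miR-181 0.27 and miR-30 0.18. The 5 members of the miR-23, miR-24 and miR-27 clusters were all slightly above 0, from 0.11 to 0.34. Their median within slide 1 was 0.11 and within slide 2 it was 0.10.

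Of the 3 miRNAs that the study follows, miR-146a is described above. miR-181b read -1.42, -1.55, -1.20 and -1.30 at 4wd and -1.71, -1.50, -1.41 and -0.36 at 2dr. Replicate 4 of 2dr alone reached the control range (-0.88 to -0.34), and the other 3 were within or below the 4wd range. The difference was 0.12 ± 0.28 (limma, adjusted p = 0.774), with the sign turning to -0.17 without that array. The array's miR-193 read -7.61, -6.13, -5.48 and -5.45 at 4wd and -5.25, -9.15, -5.48 and -3.73 at 2dr, where -9.15 is the floor, and it was detected on 3 of 4 arrays in each group. Its difference of 0.27 ± 0.90 ran from -0.46 to 1.35 as arrays were left out, so no direction can be given.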

How the data were processed

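Total RNA of corpus callosum was labelled with Cy3 and hybridized to single-colour Agilent mouse miRNA arrays, 1 sample an array. As deposited, the scanner files hold linear signal intensity: the authors' software, Agilent Feature Extraction (version 10.5.1.1 per the file headers), subtracted background, summed the probes of each miRNA to a total intensity and made a detection call, without normalization between arrays. The authors' deposited table of log2 values, scaled per array by the authors, served only as an alternative.

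Each total was divided by the array's 75th percentile over the 170 miRNAs detected on all 14 arrays, since under 50% are detected per array in most cases, set to a floor of 0.00176 and taken to log2 (floor -9.15). The 225 of 566 mouse miRNAs detected on every array of some group were tested with limma 3.58.1 (R 4.3.3) over the 4 groups of 14 arrays, after the methods, without covariates. Adjustment was over all 225, and a call needed an adjusted p under 0.05 and 2-fold. Single miRNAs had an exact two-sided permutation test over the 70 splits (scipy 1.17.1). Each array counted as 1 replicate, taken as 1 mouse because the methods count mice per group. The number of arrays limits the precision. The main limma fit has no slide term. Its p-values therefore measure the spread between arrays of a group, over the 4 groups, with mouse and slide together.

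The scripts were tested on simulated data. The text names miRNAs called, the 10 smallest p with groups apart, the 6 highest and 6 lowest differences among miRNAs detected on all 8 arrays, the 4 highest and 4 lowest among those partly detected, the 3 miRNAs the study follows and members of the lists. The comparison, rules and lists were chosen with earlier results of these data known. The Dlk1-Dio3 list was set by position, and sequences by RefSeq name; 34 of 36 names looked up matched, with arms of older names assigned from nomenclature. miR-328 and miR-485 are named only.

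Same-numbered replicates deviated together with correlations of 0.592, 0.274, 0.732 and 0.096, the last below the limit of 0.1 for taking the numbers as pairs. Only replicate 4 has its 4wd and 2dr arrays on different slides, so slide and pairing cannot be told apart in these correlations. Alternatives were the scaling, background correction, filter, floor, slide, block, test, and each array left out. The higher floor, 0.0147 (-6.09), is the 5th percentile of detected signals.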

Additional observations from a re-analysis of the deposited data

How the results depend on the processing

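No alternative gave a call at an adjusted p under 0.05 and 2-fold. Without the fold minimum the slide block with the higher floor gave 1, miR-672, at an adjusted p of 0.049 in limma, and the main setting gave 0. The number of miRNAs at an unadjusted p under 0.05, 41, became 112 after normexp (110 lower), 26 with the percentile over all miRNAs (6 lower, 20 higher), 11 with no scaling (all higher) and 15 by the methods' test (analysis of variance with Tukey's comparison, whose p was counted). It ran from 19 to 49 with each array left out, and was 25 without 4wd replicate 3, 26 without 2dr replicate 2 and 19 without 2dr replicate 4. The lower and higher split was 15 and 15 after quantile normalization and 4 and 24 in the authors' values. The number of miRNAs with groups apart, 19, became 9 with no scaling, all higher, and 15 with the percentile over all miRNAs (11 lower, 4 higher). With the replicate number as a block, limma called 0 and had 49 at an unadjusted p under 0.05, so the block changed no call.

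Of 847 values of the 32 named miRNAs under alternatives, 18 had the opposite sign, in 10 miRNAs. After normexp these were miR-322 (-0.66), miR-210 (-0.53), miR-142-3p (-0.54), miR-34c* (-0.99), miR-375 (-0.94), miR-223 (-0.94), miR-155 (-0.90), miR-181b (-0.22) and miR-193 (-0.83). Within slide 2 they were miR-466f-3p (0.31), miR-375 (-0.11), miR-181b (-0.16) and miR-193 (-0.01). The higher floor turned miR-34c* to -0.25, and a floor 4 times lower turned miR-193 to -0.23. With each array left out, miR-181b ran from -0.17 (without 2dr replicate 4) to 0.28, and miR-193 from -0.46 (without 2dr replicate 4) to 1.35, with -0.21 without 4wd replicate 1. The cause was not tested. Signals near the floor limit what can be said of dim miRNAs.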

Other observations

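Minor strands, named with a star on the array, were as many above as below the median of all tested: 13 of 26 each, with a median difference of -0.30. At an unadjusted p under 0.05, 4 of the 26 were lower and 0 higher, beside 15.6% lower and 2.67% higher over all 225 tested. Of these 4, miR-300* and miR-431* also belong to the Dlk1-Dio3 cluster. Over all 566 mouse miRNAs, 51 were detected on more 4wd than 2dr arrays and 37 on more 2dr than 4wd arrays, and 289 on none of the 8. No miRNA was detected on all 4 arrays of 1 group and on none of the other.

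Of the vessel list, 2 of 7 members were tested, miR-126-3p (0.06) and miR-143 (-1.04), and of the red blood cell list 2 of 3, miR-451 (0.50) and miR-486 (-0.86). miR-144 was detected on no array of either group. The summed signal of the vessel list ran from -0.61 to 0.05 at 4wd and from -0.54 to 0.12 at 2dr, and that of the red blood cell list from -1.46 to -0.73 and from -1.11 to -0.38. The inflammation list was split, 4 of 8 above 0 and 4 below, with miR-125a-5p at -0.65 and miR-9 at -0.70.

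At 4wd, arrays of the same slide were closer to each other than arrays of different slides, and at 2dr the ranges overlapped. The median absolute difference between replicates over the miRNAs detected on all 14 arrays was 0.26 and 0.28 within a slide at 4wd and 0.49 to 0.51 across slides. At 2dr it was 0.37 to 0.43 within slide 1 and 0.39 to 0.51 across slides. Dixon's criterion, by which chance marks about 1 group in 20, was applied to the values of single miRNAs. It marked 0 of 64 groups of 4 (the 32 named miRNAs at 4wd and at 2dr). It does not judge an array as a whole, such as replicate 2 of 2dr with its low summed signal.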
